A study of Homo sapiens with 22 samples.

Results

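Histone variants whose mRNAs end in a poly(A) tail were followed through FTO degradation in 2 AML cell lines. They are the genes H1-10, H2AZ1, H2AZ2, H2AX, H2AJ, H3-3A, H3-3B, MACROH2A1 and MACROH2A2, taken by symbol from the mRNA-seq tables of MOLM-13 and NB4 cells, 9 of the 20411 genes listed there. FP54 is a PROTAC, a bifunctional molecule that brings FTO, an eraser of the m6A mark on mRNA, to the VHL ubiquitin ligase for degradation. The groups were MOLM-13 cells with DMSO, MOLM-13 cells with 2 μM FP54, NB4 cells with DMSO and NB4 cells with 2 μM FP54, each for 48 hours and each with 3 libraries. MOLM-13 is an AML line with an MLL rearrangement, NB4 is an acute promyelocytic leukemia line, and neither carried a further genetic change in the labels. The labels do not say whether the 3 libraries of a group came from separate cultures, so p-values measure the spread between these libraries, which may be technical.

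Most histone genes are transcribed during S phase, and their mRNAs end in a stem-loop in place of a poly(A) tail. Apart from H2AX, which gives both kinds of mRNA, these variants are made throughout the cell cycle from mRNAs with a conventional poly(A) tail. The variant proteins replace the canonical histones at chosen places in chromatin. H2A.Z marks promoters and enhancers, H3.3 is placed outside DNA replication by HIRA and by DAXX with ATRX, H2A.X is phosphorylated at DNA breaks, and the macroH2A proteins carry a large extra domain and are found in repressed chromatin.

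The ends of the mRNAs were examined first because the libraries were made from poly(A)-selected RNA. In the canonical transcripts of GENCODE v44 (hg38), 7 of the 9 variants had AATAAA or ATTAAA on the sense strand within the last 50 bases, a share of 77.8% beside 77.4% of 19919 transcripts of all genes and 4.55% of the 66 replication-dependent histone transcripts. H2AZ2 and MACROH2A1 had neither hexamer in that window. The histone stem-loop motif was found after the stop codon in 63 of the 66 replication-dependent transcripts (95.5%), in 0.402% of all transcripts, and in 1 of the 9 variants. That variant was H2AX, known to give both a stem-loop and a polyadenylated mRNA. Its motif lay 50 bases past the stop codon and 1024 bases before the end of the transcript. Its stem-loop mRNA is poorly sampled after poly(A) selection, so all H2AX values given here describe mainly the polyadenylated form. The sites below show both ends of H2AX and the hexamers of 3 other variants, with the stem-loop or the hexamer in capitals and up to 30 bases in all.
H2AX stem-loop: cacaaaGGCCCTTTTAAGGGCCaccacc
H2AX hexamer: ggactaattttATTAAAggattgttttt
H2AZ1 hexamer: tggataagttcAATAAAggtcatatccc
H3-3A hexamer: tattaaaatacATTAAActatacctgct
H3-3B hexamer: gatgagactaaAATAAAatttttgaagt

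The genes lie apart in the genome. In hg38 H1-10 is at chr3:129314771-129316286, H2AZ1 at chr4:99948086-99950355, H2AZ2 at chr7:44826791-44848087, H2AX at chr11:119093874-119095465, H3-3B at chr17:75776434-75785893 and MACROH2A1 at chr5:135334381-135399914, all on the minus strand. H2AJ is at chr12:14774405-14778002, H3-3A at chr1:226061851-226072019 and MACROH2A2 at chr10:70052544-70112282, all on the plus strand. H3-3B overlaps the protein-coding gene UNK on the opposite strand and MACROH2A2 overlaps AIFM2 on the opposite strand. Whether reads were counted by strand is not given in the sources used here, so reads from these partners cannot be told apart. The coding sequences of H3-3A and H3-3B, each 411 bases with the stop codon, were identical at 323 positions (78.6%) and encoded the same 136 residues. Those of H2AZ1 and H2AZ2, each 387 bases, were identical at 311 positions (80.4%) and their proteins differed at 3 of 128 residues. Each pair thus encodes the same or nearly the same histone.

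Near-identical copies of an mRNA elsewhere in the genome limit what 80-base reads can show. For H3-3A, 899 of the 991 possible 80-base windows of the canonical transcript (90.7%) had an exact copy at another place in hg38, spread over 8 loci, with the processed pseudogene H3P6 on chromosome 2 holding copies of all 899 windows. The share was 4.27% for H3-3B, with copies in H3-5, 3.9% for H2AZ2 and 1.52% for H2AZ1, and 0 windows of H1-10, H2AX, H2AJ, MACROH2A1 or MACROH2A2 had a copy. How reads with several placements were counted is not given in the sources used here, so the H3-3A values are uncertain in level.

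The upstream sequences of the paralogs are shown because members of a pair moved unequally, as described further on. They come from the RefSeq promoter table (GRCh38.p14), in which all 9 variants matched by symbol at the start of the canonical transcript. Capitals mark CCAAT, the binding word of NF-Y, on either strand (CCAAT or ATTGG), and TATAAA within the last 60 bases on the gene's strand. The 150 bases before each start follow.
H2AZ1, chr4:99950276-99950425, minus strand: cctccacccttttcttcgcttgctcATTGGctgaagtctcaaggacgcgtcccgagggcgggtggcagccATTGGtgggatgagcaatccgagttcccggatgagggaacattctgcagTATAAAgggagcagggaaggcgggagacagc
H2AZ2, chr7:44848088-44848237, minus strand: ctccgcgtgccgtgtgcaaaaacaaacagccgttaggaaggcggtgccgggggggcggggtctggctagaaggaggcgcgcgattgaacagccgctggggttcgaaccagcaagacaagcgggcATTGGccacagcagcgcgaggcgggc
H3-3A, chr1:226062566-226062715, plus strand: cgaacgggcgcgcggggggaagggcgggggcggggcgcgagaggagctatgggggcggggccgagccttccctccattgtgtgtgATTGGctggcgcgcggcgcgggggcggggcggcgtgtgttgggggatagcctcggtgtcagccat
H3-3B, chr17:75779780-75779929, minus strand: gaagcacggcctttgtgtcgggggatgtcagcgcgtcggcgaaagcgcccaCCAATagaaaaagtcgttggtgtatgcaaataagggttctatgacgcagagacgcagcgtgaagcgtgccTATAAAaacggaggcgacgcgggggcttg
Over the 250 bases before the start, 6 of the 9 variants held CCAAT on either strand at least once, beside 32.0% of 35116 promoters in the table. H2AZ2, H2AX and H3-3B held 4 copies each, H2AZ1 and H2AJ 3 each, and H3-3A 1. At least 3 copies were found in 2.93% of all promoters. TATAAA was found in H1-10, H2AZ1, H2AX and H3-3B, and in 2.78% of all promoters. Within the pairs, H2AZ1 and H3-3B had TATAAA in this window and H2AZ2 and H3-3A did not. A link between these promoter words and the changes with FP54 was not tested. The word GGAC, the core of the m6A consensus, occurred between 0.37 (H3-3B) and 6.93 (H2AZ1) times per kilobase of transcript, with a median of 2.64 over the 9 variants and 3.76 over all transcripts.

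The libraries held between 5835173 and 22342375 reads on genes, as recovered from the RPKM values, and the shallowest was MOLM-13 FP54 replicate 2. Line markers went with the labels in part. Of the 6 MOLM-13 markers, FLT3, HOXA9, MEIS1, CD33 and SPI1 were higher in DMSO-treated MOLM-13 than NB4 cells (FLT3 at 74.0 ± 16.3 and 5.67 ± 0.477 RPKM, SD, n = 3), and HOXA10 was higher in NB4 cells (13.2 against 7.3 RPKM). Of the 6 NB4 markers only MPO was higher in NB4 cells (2170 ± 119 against 16.1 ± 2.92 RPKM). PRTN3 (61.0 against 413.5 RPKM), AZU1 (9.96 against 174.1 RPKM), ELANE (0.15 against 186.1 RPKM), CD33 and SPI1 were lower there. FTO mRNA was at 1.01 ± 0.0767 RPKM with DMSO and 1.01 ± 0.118 RPKM with FP54 in MOLM-13 cells, and at 2.73 ± 0.18 and 2.03 ± 0.0782 RPKM in NB4 cells. FP54 acts on the FTO protein, so its mRNA does not check the labels.

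In DMSO-treated cells 8 of the 9 variants were well expressed and MACROH2A2 was nearly silent. By RPKM the order in MOLM-13 cells was H3-3B (58.0 ± 2.14), H2AZ1 (57.4 ± 12.9), H1-10 (41.7 ± 1.47), MACROH2A1 (34.7 ± 2.58), H3-3A (30.04 ± 1.71), H2AJ (16.6 ± 1.5), H2AX (15.7 ± 3.71) and H2AZ2 (15.2 ± 2.06). The values of neighbours overlapped between H3-3B and H2AZ1, H2AZ1 and H1-10, H2AJ and H2AX, and H2AX and H2AZ2. In NB4 cells the order was H2AZ1 (160.4 ± 11.99), H3-3B (90.2 ± 6.81), H2AX (71.8 ± 9.54), H1-10 (61.9 ± 14.9), H2AZ2 (44.9 ± 3.49), H3-3A (41.7 ± 2.4), MACROH2A1 (21.97 ± 1.54) and H2AJ (6.38 ± 1.54), with overlap between H2AX and H1-10 and between H2AZ2 and H3-3A. The RPKM divide by the length of all exons of a gene, which is 1.0 to 8.88 times the canonical transcript. Rescaled as if all reads came from the canonical transcript, MACROH2A1 would stand at 307.5 RPKM in MOLM-13 cells and H2AX stay at 15.7 RPKM, so the order between genes depends on the length used.

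In DMSO-treated cells 6 of the 8 expressed variants were higher in NB4 and 2 in MOLM-13 cells. The ratio of DMSO means, NB4 over MOLM-13, was 4.57 for H2AX, 2.95 for H2AZ2, 2.8 for H2AZ1, 1.56 for H3-3B, 1.48 for H1-10, 1.39 for H3-3A, 0.634 for MACROH2A1 and 0.384 for H2AJ, and the values of the lines did not overlap for any of these 8. The tables of the lines were normalized separately and this difference was not tested. The shares of all genes that were higher in NB4 cells or without overlap between lines were not computed. These counts can therefore not be read as a trait of the variants.

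**Figure D1:**
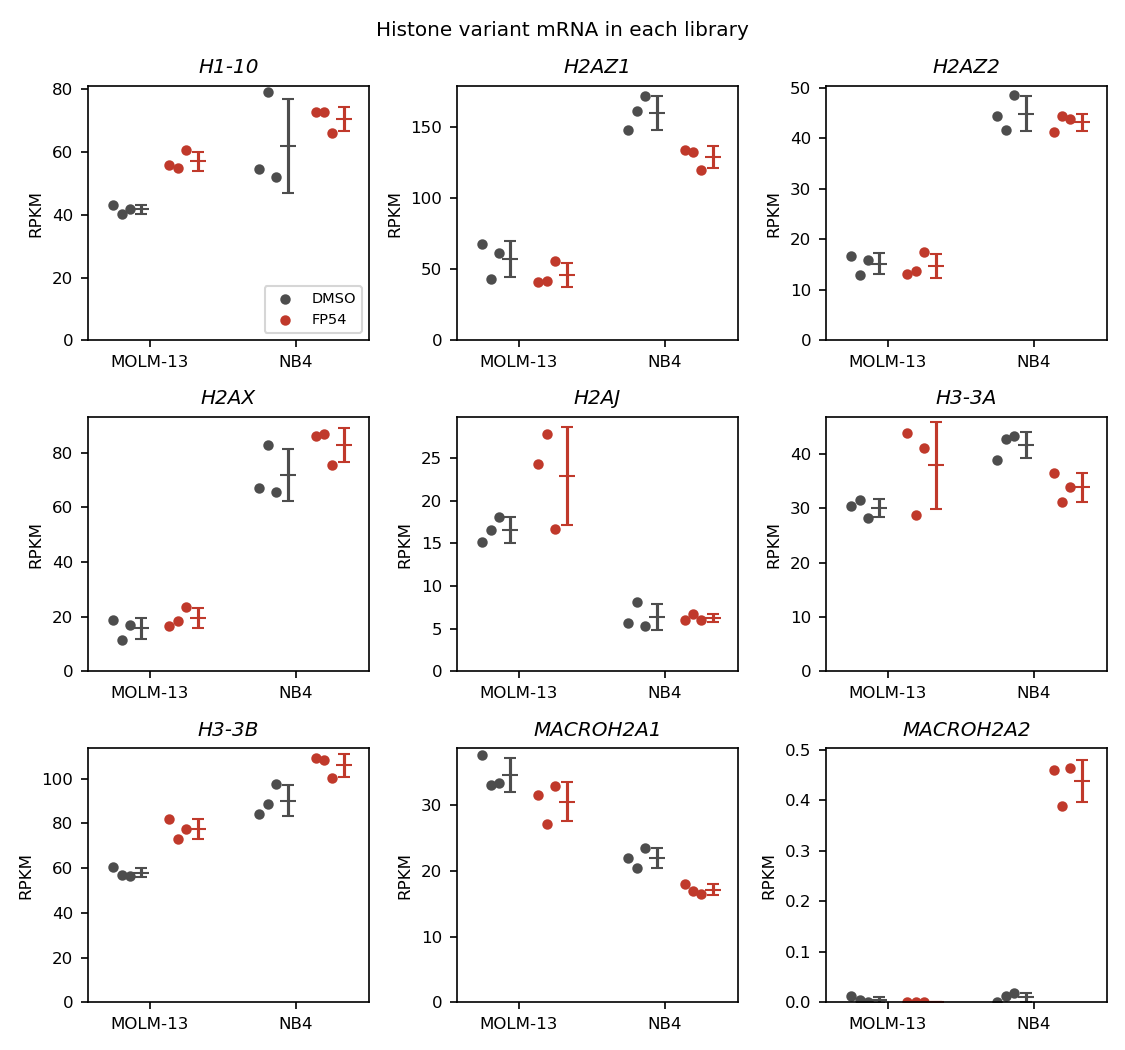
RPKM of each variant (vertical axes, starting at 0) in the 12 libraries, grouped by line, with DMSO in grey and FP54 in red. Points are libraries, and bars give the mean ± SD of 3. MACROH2A2 lies below 0.02 RPKM except in FP54-treated NB4 cells, where it reached 0.39 to 0.464 RPKM.

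In MOLM-13 cells, H1-10 and H3-3B were the variants that rose with FP54, by 36.6% and 33.6%. H1-10, a linker histone that binds DNA between nucleosomes, was at 43.1, 40.1 and 41.9 RPKM with DMSO and 55.9, 54.8 and 60.4 RPKM with FP54. All FP54 libraries stood above all DMSO libraries, and the fitted log2 fold change was 0.45 (SE 0.12, limma adjusted p = 0.0318). H3-3B, 1 of the pair of H3.3 genes, was at 60.4, 56.8 and 56.6 RPKM with DMSO and 82.0, 73.0 and 77.5 RPKM with FP54. Its groups did not overlap either, and the log2 fold change was 0.42 (SE 0.12, limma adjusted p = 0.0418). For both, the limma adjusted p was no longer below 0.05 when a library other than FP54 replicate 2 was left out. H1-10 gave a limma adjusted p between 0.0536 and 0.127 and H3-3B between 0.0658 and 0.169 in these fits. In a bulk sample a change in cell composition and a change in RNA per cell cannot be told apart.

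The H2A variants of MOLM-13 cells varied more between libraries. H2AJ, an H2A variant first studied in senescent cells, was at 15.1, 16.6 and 18.1 RPKM with DMSO and 24.3, 27.9 and 16.7 RPKM with FP54. FP54 replicate 3 lay within the DMSO range, and the log2 fold change of 0.43 (SE 0.19) had a limma adjusted p of 0.133. Without that replicate it was 0.65 with a limma adjusted p of 0.027. H2AX was at 18.7, 11.6 and 16.9 RPKM with DMSO and 16.6, 18.3 and 23.6 RPKM with FP54, with overlapping groups and a log2 fold change of 0.32 (SE 0.20, limma adjusted p = 0.287). H2AZ1 was at 67.8, 42.9 and 61.4 RPKM with DMSO and 40.9, 41.9 and 55.9 RPKM with FP54. Here DMSO replicate 2 lay inside the FP54 range, and the log2 fold change of -0.30 (SE 0.19) had a limma adjusted p of 0.301. DMSO replicate 2 was the lowest DMSO library for H2AZ1, H2AZ2 and H2AX alike.

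The other variants tested in MOLM-13 cells did not pass the test. H3-3A was at 30.4, 31.5 and 28.2 RPKM with DMSO and 43.8, 28.8 and 41.1 RPKM with FP54, where FP54 replicate 2, the shallowest library, lay in the DMSO range. Its log2 fold change was 0.31 (SE 0.17, limma adjusted p = 0.218), and 0.50 (limma adjusted p = 0.031) without that library. MACROH2A1 was at 37.6, 33.0 and 33.3 RPKM with DMSO and 31.6, 27.1 and 32.8 RPKM with FP54. The FP54 libraries all lay below the DMSO libraries, the nearest pair at 32.8 and 33.0 RPKM, and the log2 fold change was -0.18 (SE 0.14, limma adjusted p = 0.363). H2AZ2, at 12.9 to 16.8 RPKM with DMSO and 13.2 to 17.5 RPKM with FP54, gave -0.04 (SE 0.16, limma adjusted p = 0.874).

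The MOLM-13 variants were read against all genes. At the cutoff used in the study, p below 0.01 and a log2 fold change past 0.5 in either direction, 0 of the 8 tested variants were called by limma or by limma-voom on recovered reads, while 9.3% of 9710 genes were called higher and 9.04% lower. At an unadjusted limma p below 0.05 there were 3 (H1-10, H3-3B and H2AJ), and the share of all genes at that level was not computed. At a limma adjusted p below 0.05, 2 of 8 were higher and 0 lower, beside 9.84% and 9.32% of all genes. Groups without overlap were found for 2 variants in the higher and 1 in the lower direction, beside 20.2% and 17% of all genes. The median log2 fold change of the 8 variants was 0.32 and that of all genes 0.00, the median absolute change was 0.32 beside 0.29, and 31.5% of genes had a larger absolute change than every variant.

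In NB4 cells, H2AZ1, H3-3A and MACROH2A1 fell by 19.6%, 18.9% and 21.7%, and H3-3B rose by 17.5%, as fitted. MACROH2A1, the main macroH2A gene in these cells, was at 21.96, 20.4 and 23.5 RPKM with DMSO and 18.1, 16.9 and 16.5 RPKM with FP54. The groups did not overlap, and the log2 fold change was -0.35 (SE 0.09, limma adjusted p = 0.00673). Its limma adjusted p stayed below 0.05 under all 16 alternatives tried for this line. H2AZ1 was at 147.8, 161.6 and 171.7 RPKM with DMSO and 133.8, 132.8 and 120.0 RPKM with FP54, again without overlap. Its log2 fold change was -0.31 (SE 0.09, limma adjusted p = 0.0118), and -0.26 (limma adjusted p = 0.0711) without FP54 replicate 3.

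As fitted from the deposited RPKM, the H3.3 genes moved in opposite directions in NB4 cells. H3-3A was at 39.0, 42.8 and 43.4 RPKM with DMSO and 36.5, 31.2 and 33.9 RPKM with FP54, and H3-3B at 84.1, 88.8 and 97.6 RPKM with DMSO and 109.1, 108.5 and 100.1 RPKM with FP54. Neither gene's groups overlapped. The log2 fold changes were -0.30 for H3-3A (SE 0.09, limma adjusted p = 0.0153) and 0.23 for H3-3B (SE 0.08, limma adjusted p = 0.0400). The limma adjusted p of H3-3A rose above 0.05 without DMSO replicate 3 (0.0553), without FP54 replicate 2 (0.0918) and without FP54 replicate 3 (0.0533). That of H3-3B rose above 0.05 without DMSO replicate 1 (0.106) or without FP54 replicate 1 (0.127), 2 (0.143) or 3 (0.0619). Under median-ratio scaling H3-3A was at -0.50 and H3-3B at 0.03 (limma adjusted p = 0.00182 and 0.802). Under quantile normalization they were at -0.18 and 0.43 (limma adjusted p = 0.103 and 0.000729). UNK, the gene opposite H3-3B, was at 6.54 ± 0.613 RPKM with DMSO and 7.02 ± 0.575 RPKM with FP54.

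H1-10, H2AX, H2AZ2 and H2AJ did not pass the test in NB4 cells. H1-10 was at 54.5, 79.0 and 52.0 RPKM with DMSO and 72.5, 72.7 and 65.9 RPKM with FP54, and H2AX at 67.0, 82.8 and 65.7 RPKM with DMSO and 86.1, 86.9 and 75.6 RPKM with FP54. For both, DMSO replicate 2 stood above the other DMSO libraries and inside or near the FP54 values. The log2 fold changes were 0.21 for each (SE 0.14 and 0.11, limma adjusted p = 0.232 and 0.116), and 0.40 and 0.32 (limma adjusted p = 0.000703 and 0.00446) without that library. H2AZ2 was at 44.5, 41.6 and 48.6 RPKM with DMSO and 41.3, 44.5 and 43.9 RPKM with FP54, a log2 fold change of -0.05 with a 95% interval from -0.24 to 0.14. H2AJ, at 5.35 to 8.16 RPKM with DMSO and 5.99 to 6.78 RPKM with FP54, gave -0.00 with an interval from -0.34 to 0.33.

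At the study's cutoff 0 of the 8 tested variants were called in NB4 cells by limma or by limma-voom, beside 18.6% of 9853 genes called higher and 10.7% lower. An unadjusted limma p below 0.05 was found for 4 variants, and the share of all genes at that level was not computed. At a limma adjusted p below 0.05, 1 variant was higher and 3 were lower, beside 29.8% and 22% of all genes. Groups did not overlap for 1 variant in the higher and 3 in the lower direction, beside 34.3% and 26.2%. The median log2 fold change was -0.03 for the variants and 0.07 for all genes, the median absolute change was 0.22 beside 0.31, and 45.5% of genes had a larger absolute change than every variant. Scaling mattered more in NB4 than in MOLM-13 cells. Median-ratio scaling moved the median of all genes to -0.13, calling 1184 genes higher and 2008 lower at the cutoff in place of 1834 and 1050, and quantile normalization called 1280 and 1363. Under median-ratio scaling H2AZ1, H3-3A and MACROH2A1 passed the cutoff, H2AZ2 was at -0.25 (limma adjusted p = 0.0379) and H3-3B at 0.03 (0.802). Under quantile normalization H2AZ1 was at -0.08 (limma adjusted p = 0.399) and H3-3A at -0.18 (0.103). H3-3B and MACROH2A1 kept a limma adjusted p below 0.05, and H1-10 (0.37, 0.0258) and H2AX (0.38, 0.00465) gained one.

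**Figure D2:**
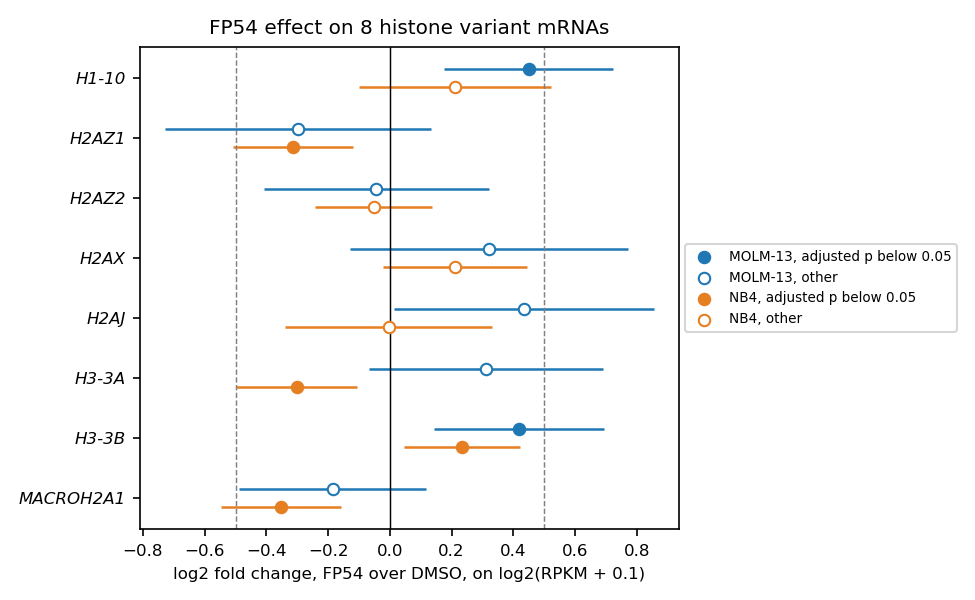
Fitted log2 fold change of FP54 over DMSO for the 8 variants tested (horizontal axis, on log2(RPKM + 0.1)), with 95% intervals from limma, in MOLM-13 (blue) and NB4 cells (orange). Filled points have an adjusted p below 0.05, dashed lines mark the cutoff of 0.5 in either direction, and every point lies inside them.

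The effect of FP54 was compared between lines as an interaction in 12 libraries. Of the 8 variants, 0 passed a limma adjusted p below 0.05, beside 14.2% of 8849 genes. For the counts that follow, the share of all genes was not computed. At an unadjusted limma p below 0.05 there was 1 variant, and 1 passed the adjusted threshold with limma-voom. H3-3A was that gene in both cases, with an NB4 effect minus MOLM-13 effect of -0.61 on the log2 scale (95% interval -1.04 to -0.19, SE 0.20, limma adjusted p = 0.0536; 0.0391 with limma-voom). Without MOLM-13 FP54 replicate 2 the difference was -0.80 (limma adjusted p = 0.00267), and without MOLM-13 DMSO replicate 2 it was -0.65 (0.0496). For H3-3B the difference was -0.19 (95% interval -0.49 to 0.12), for MACROH2A1 -0.17 (-0.50 to 0.17), for H1-10 -0.24 (-0.66 to 0.18) and for H2AJ -0.44 (-1.001 to 0.12). The intervals for H2AZ1 (-0.51 to 0.47), H2AZ2 (-0.41 to 0.39) and H2AX (-0.64 to 0.42) were centred near 0 and wide.

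The balance within a pair of paralogs does not depend on library scaling, since both genes are read in the same library. Tested over both lines, the ratio of H2AZ1 to H2AZ2 fell with FP54. In MOLM-13 cells H2AZ1 was 4.04, 3.33 and 3.85 times H2AZ2 with DMSO and 3.11, 3.06 and 3.2 times with FP54, and in NB4 cells 3.32, 3.88 and 3.54 times with DMSO and 3.24, 2.99 and 2.74 times with FP54. Every FP54 library stood below every DMSO library of its line. The mean change of the log2 ratio was -0.26 in each line, with p = 0.005 in an exact two-sided permutation test within lines, the smallest p that its 400 arrangements can give, and 0.015 after adjustment over the 3 pairs. The summed RPKM of both genes were 205.3 ± 14.1 with DMSO and 172.1 ± 7.18 with FP54 in NB4 cells, and 72.6 ± 14.97 and 61.0 ± 10.7 in MOLM-13 cells. The exact adjusted p stayed below 0.05 with pseudocounts of 1 and 0.01 and with each library left out. It was 0.0469 when same-numbered libraries were joined as a block. Quantile normalization was not run on the ratios.

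The ratio of H3-3A to H3-3B was lower with FP54 in NB4 cells. There H3-3A was 0.463, 0.482 and 0.445 times H3-3B with DMSO and 0.334, 0.288 and 0.338 times with FP54, without overlap, a change of -0.54 in the log2 ratio. In MOLM-13 cells the values were 0.503, 0.555 and 0.498 with DMSO and 0.534, 0.394 and 0.53 with FP54, so the groups overlapped and FP54 replicate 2 stood apart from the other FP54 libraries (change of -0.11). Over both lines the mean change was -0.32 (exact permutation p = 0.04, adjusted p = 0.04 over the 3 pairs), and the adjusted p was 0.08 without MOLM-13 FP54 replicate 2. With 3 libraries against 3 in a single line an exact permutation p cannot go below 0.1. Summed over both genes, H3.3 mRNA was at 88.0 ± 3.03 RPKM with DMSO and 115.4 ± 12.3 RPKM with FP54 in MOLM-13 cells, without overlap, and at 131.9 ± 8.92 and 139.7 ± 5.77 RPKM in NB4 cells, with overlap. The exact copies of H3-3A elsewhere in the genome affect all of these H3-3A values.

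**Figure D3:**
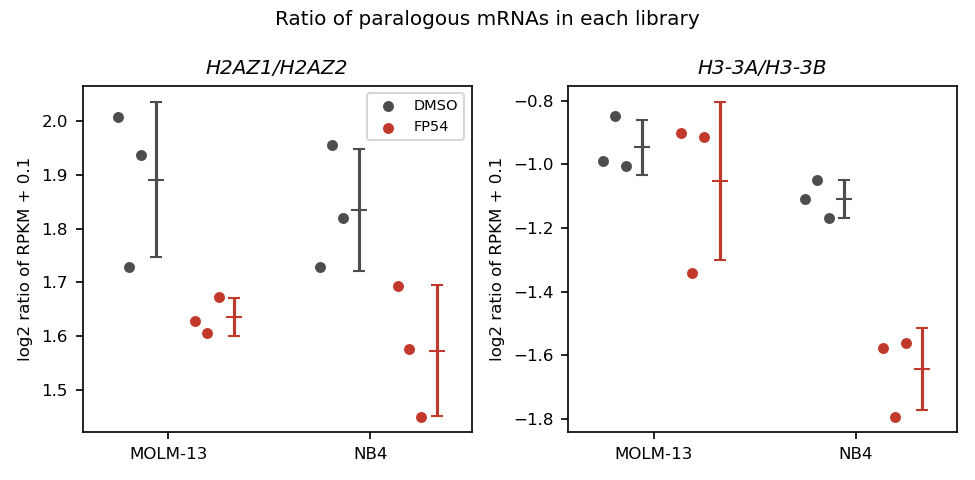
Log2 ratio of H2AZ1 to H2AZ2 (left) and of H3-3A to H3-3B (right) in each library, from RPKM + 0.1, with DMSO in grey and FP54 in red and bars for the mean ± SD of 3. The H2AZ1 ratios of FP54 lie below those of DMSO in both lines, and the H3-3A ratios do so in NB4 cells.

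MACROH2A2, the second macroH2A gene, was close to silent and was below the filter of a mean of 1 RPKM in both lines. In MOLM-13 cells it had 3, 1 and 0 reads with DMSO and 0, 0 and 0 reads with FP54, where 3 reads correspond to between 0.0104 and 0.0343 RPKM in the FP54 libraries. In NB4 cells it had 0, 4 and 6 reads with DMSO and 73, 68 and 91 reads with FP54, or 0, 0.0125 and 0.0179 RPKM against 0.46, 0.39 and 0.464 RPKM. All FP54 libraries of NB4 stood above all DMSO libraries. Pooled over 3 libraries, 10 of 64304749 reads became 232 of 35315005 reads, a ratio of 42.2 with an exact 95% interval from 22.6 to 89.3 that covers counting error only. Fitted without the filter, the log2 fold change was 2.29 (SE 0.15, limma adjusted p = 3.61e-05 over 17790 genes) on the log2(RPKM + 0.1) scale, which understates the change of so low a gene.

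Other genes that were near 0 in NB4 cells also gained reads with FP54. The mean of 416 olfactory receptor genes, which blood cells do not normally express, was between 0.00168 and 0.00372 RPKM in the DMSO libraries and between 0.0496 and 0.0549 RPKM in the FP54 libraries of NB4, and between 0.00386 and 0.00831 RPKM in MOLM-13 cells. Of the 7979 genes with at most 6 reads in each NB4 DMSO library, 2682 had every FP54 library above every DMSO library and 299 (3.75%) reached the FP54 level of MACROH2A2. AIFM2, which overlaps MACROH2A2 on the opposite strand, was at 0.342 ± 0.0376 RPKM with DMSO and 0.762 ± 0.0972 RPKM with FP54 in NB4 cells. In MOLM-13 cells AIFM2 was at 1.93 ± 0.0538 RPKM with DMSO and 1.94 ± 0.135 RPKM with FP54. MACROH2A2 had at most 3 reads in a MOLM-13 library. The part of AIFM2, or of the gain seen in other genes near 0, in the MACROH2A2 values was not tested. Even with FP54, MACROH2A2 in NB4 cells (0.438 ± 0.0418 RPKM) was far below MACROH2A1 (17.2 ± 0.811 RPKM).

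The factors that place and remove these variants were described from lists written for each. At the cutoff, 9.3% of all genes were called higher and 9.04% lower in MOLM-13 cells. In NB4 cells 18.6% were called higher and 10.7% lower. The counts from the lists were not tested against these shares. For H2A.Z, 19 of 20 list genes were tested in each line. At the cutoff 2 were lower in MOLM-13 and 4 in NB4 cells with 0 higher. The median log2 fold change of the list was -0.09 and -0.14, beside 0.00 and 0.07 for all genes. The ATPases RUVBL1 and RUVBL2, shared by the complexes SRCAP, TIP60 and INO80, fell in both lines. RUVBL1 was at 8.91 RPKM with DMSO and 3.22 RPKM with FP54 in MOLM-13 cells (log2 fold change -1.40, limma adjusted p = 0.0113) and at 39.3 and 23.0 RPKM in NB4 cells (-0.77, 3.63e-05). RUVBL2 changed by -0.77 (limma adjusted p = 0.00845) and -0.92 (3.72e-05). Both also act outside chromatin, in the assembly of snoRNPs among others. For H3.3, all 10 list genes were tested, with 1 lower in MOLM-13 cells, and 1 higher and 2 lower in NB4 cells. HIRA, the chaperone that places H3.3 in transcribed genes, fell by 0.59 in MOLM-13 cells (limma adjusted p = 0.0453) and by 0.75 in NB4 cells (0.0019) on the log2 scale. DAXX, the chaperone for H3.3 at repeats, was at -0.67 in NB4 cells (limma adjusted p = 0.00112) and -0.32 in MOLM-13 cells (0.301), and the remodeler CHD2 at 0.69 (0.000296) and 0.25 (0.387).

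The kinases and readers of H2A.X and 2 further lists follow. Of all genes, 9.3% were called higher and 9.04% lower at the cutoff in MOLM-13 cells, and 18.6% and 10.7% in NB4 cells. In MOLM-13 cells 1 of 10 tested was lower, PRKDC, the kinase DNA-PK, at -1.03 (limma adjusted p = 0.0243; -0.09 and 0.64 in NB4 cells). In NB4 cells 1 of 11 was higher, the kinase ATM, at 0.56 (limma adjusted p = 0.0119; 0.41 and 0.111 in MOLM-13 cells). Among 16 general and replication-coupled chaperones tested, 1 was lower at the cutoff in MOLM-13 and 2 in NB4 cells. MCM2 was at -0.59 in MOLM-13 cells (limma adjusted p = 0.0481) and -0.38 in NB4 cells (0.00207). SSRP1, a subunit of FACT, was at -0.53 in NB4 cells (limma adjusted p = 0.00131) and -0.70 in MOLM-13 cells (0.0619). The acetyltransferase HAT1 was at -0.52 in NB4 cells (limma adjusted p = 0.00145) and -0.51 in MOLM-13 cells (0.0992). The medians of the 16 chaperones were -0.39 in MOLM-13 and -0.33 in NB4 cells, beside 0.00 and 0.07 for all genes. Of 12 genes for histone mRNA 3′ end processing, 3 were lower at the cutoff in MOLM-13 cells and 1 was higher in NB4 cells. Among the lower were CPSF2 (-0.81, limma adjusted p = 0.0444) and CSTF2 (-0.69, 0.0174), at -0.24 (0.125) and -0.30 (0.0154) in NB4 cells. The higher gene was CASP8AP2 (0.67, limma adjusted p = 0.0138), at -0.10 (0.709) in MOLM-13 cells.

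Histone genes outside the set are given beside the variants. CENPA, the centromeric H3 variant, fell by 0.67 in NB4 cells (limma adjusted p = 0.000233). The replication-dependent genes, whose mRNAs mostly lack a poly(A) tail and are poorly sampled after poly(A) selection, passed the filter for 34 of 66 in MOLM-13 and 10 of 66 in NB4 cells. In MOLM-13 cells 19 of 34 were higher at the cutoff and 0 lower, beside 9.3% and 9.04% of all genes. Their median was 1.04, and H4C12 rose by 2.11 (limma adjusted p = 0.0101) and H2BC17 by 2.12 (0.0235). In NB4 cells 2 of 10 were higher and 5 lower, beside 18.6% and 10.7% of all genes. There H2AC8 was at -1.69 (limma adjusted p = 2.36e-05), H2BC4 at -1.51 (0.00107), H2AC6 at 1.22 (0.000156) and H4C3 at 1.27 (0.000373). A gene near the filter can pass through the group in which it is high. H2AX, the variant with both ends, gave 0.32 and 0.21 in the same fits.

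**Figure D4:**
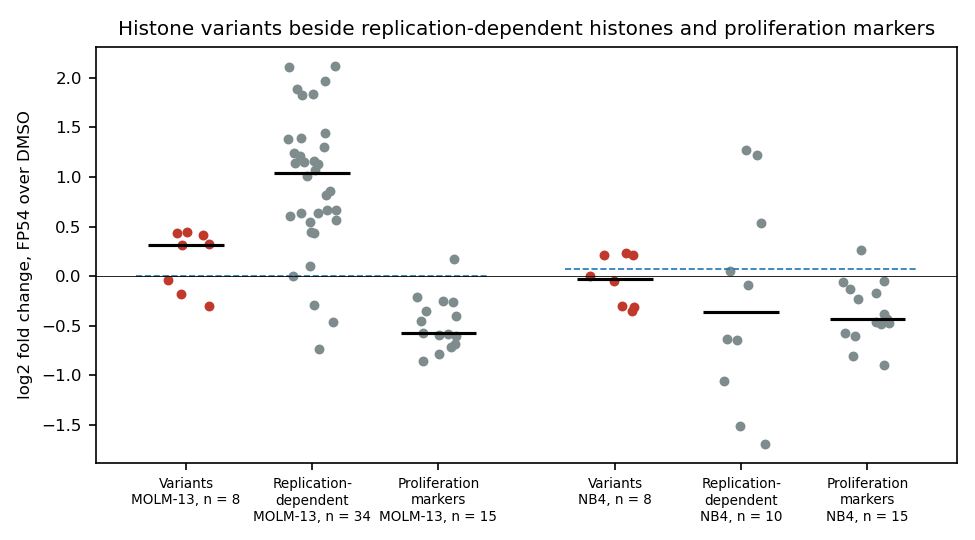
Fitted log2 fold change of FP54 over DMSO (vertical axis) for the 8 tested variants in red and, in grey, for the replication-dependent histones and proliferation markers that passed the filter, with n below each column. Black bars are medians and dashed blue lines the median of all genes. The variants lie between -0.35 and 0.45.

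Of the 15 proliferation markers, 5 were lower at the cutoff in MOLM-13 and 4 in NB4 cells with 0 higher. Of all genes, 9.04% and 10.7% were called lower, and the medians were 0.00 and 0.07. The markers had medians of -0.57 and -0.43. Their summed RPKM lay between 769.8 and 1034 with DMSO and 494.6 and 750.7 with FP54 in MOLM-13 cells, and between 1743 and 1844 and 1309 and 1351 in NB4 cells. CCNE1 (-0.86, limma adjusted p = 0.0362) and MCM4 (-0.71, 0.0456) had the largest decreases in MOLM-13 cells among those past the cutoff without overlap, and CCNB1 (-0.90, 1.19e-05) and MCM7 (-0.80, 2.37e-05) in NB4 cells. The part of cell cycle changes in the variants' values was not tested. Of the NB4 markers, 3 of 5 tested were lower in NB4 cells, with PRTN3 at -1.93 (limma adjusted p = 3.17e-07) and MPO at -0.96 (1.28e-05), and 1 of 6 was lower in MOLM-13 cells, MPO at -2.06 (0.000985). The 6 MOLM-13 markers had a median of 0.19 in MOLM-13 cells. Markers of other lineages were low in MOLM-13 cells, at a summed 0.629 to 1.25 RPKM. In NB4 cells they summed to 8.03 to 12.1 RPKM, mostly EPCAM, and 1 of the 6 passed the filter, so not all were low there. MS4A1 and HBB were below 0.1 RPKM in every group.

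The genes most like each of 3 variants were found over the 12 libraries after centring on the mean of each line, among 8849 genes. H2AZ1 was most like POLR1E (Pearson r = 0.973), DUT (0.97) and HSPE1 (0.968). H3-3B was most like TPRG1L (0.96), TMEM14C (0.957) and FAM210B (0.956), and H2AX most like C21orf58 (0.953), C17orf58 (0.906) and RMI2 (0.906). These are descriptions over libraries that share treatment, depth and 2 lines, chosen as the highest of many.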

How the data were processed

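The 12 mRNA-seq libraries of MOLM-13 and NB4 cells (3 per treatment and line) were used, with the line taken from each table and treatment and number from its columns, and the 10 m6A-seq and polysome-seq samples of the 22 in the labels were not analysed here. According to the study's methods, poly(A) RNA was selected, reads were trimmed (cutadapt 4.8), deduplicated, aligned to hg38 (STAR 2.7.11b) and counted on protein-coding genes (featureCounts 2.0.3). The RPKM values analysed are those the authors deposited. Multiplying RPKM by exon lengths of GENCODE v44, a later release on the same build, gave whole reads (within 0.1) for 99.0% to 99.5% of low values, from which depth was taken.

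Values of log2(RPKM + 0.1) went into a separate limma 3.58.1 fit per line (R 4.3.3; eBayes with trend, Benjamini-Hochberg adjustment) for genes whose 6 libraries averaged 1 RPKM or more, without a block, and the lines were compared as an interaction. A gene was called where its p was under 0.01 and it changed by 0.5 or more on the log2 scale. Paralog ratios were tested by exact two-sided permutation within lines. RPKM were read with Python 3.11.15, numpy 2.4.6 and pandas 2.3.3, and plots made with matplotlib 3.10.9. The fits were tested on simulated data. Transcript ends, promoters and 80-base copies (both strands, exact) were searched in GENCODE v44, RefSeq and hg38 sequences.

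The members, lists and tests were chosen with earlier results of these data known. All 9 variants are named. From each list, genes past the cutoff without overlap between treatments are named, up to 2 with the largest decrease and 2 with the largest increase per line; line markers, EPCAM, FTO, MS4A1, HBB and genes overlapping or copying a variant were named for their role. A gene that the rule names is not reported here. Alternatives were other pseudocounts and filters, median-ratio and quantile scaling, the replicate block, other eBayes settings, limma-voom on recovered reads, an adjusted p cutoff and leaving out each library. For the paralog ratios only the pseudocounts, the replicate block and leaving out each library were run.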

Additional observations from a re-analysis of the deposited data

Results flagged for a closer look

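The effect of FP54 differed between the lines, by the interaction test of limma at an adjusted p below 0.05, for 6 of 31 genes, beside 14.2% of all 8849. The 31 are the genes named by rule, reported here and tested in both lines, and 0 of the 8 variants among them differed. Genes other than the variants were named for passing the cutoff in a line, which favours a difference between lines. None of these differences was traced to a cause. The differences below are NB4 effect minus MOLM-13 effect on the log2 scale. Among histones they were -2.90 for H2AC8 (adjusted p = 2.45e-06), -1.94 for H2BC4 (0.00241) and 1.17 for H4C3 (0.0291). The cyclin CCNB1 differed by -1.07 (adjusted p = 0.000387). The granule protein genes MPO and PRTN3 differed by 1.10 (0.00268) and -1.68 (0.00196).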

How the results depend on the processing

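Depth limits MACROH2A2 above all, with at most 6 reads in a DMSO library. The replicate numbers did not pair the libraries: same-numbered libraries gave correlations of -0.262, -0.134 and -0.0577 in MOLM-13 and -0.143, 0.0748 and 0.123 in NB4 cells. Other numbers went together in MOLM-13 cells. There DMSO 1 and FP54 3 gave 0.593, DMSO 2 and FP54 1 gave 0.494, and DMSO 3 and FP54 2 gave 0.475. The replicate block joined same-numbered libraries, and a block on those other pairs was not run, so shared structure between libraries was not tested. With the replicate block, H1-10 (limma adjusted p = 0.0822) and H3-3B (0.1) were no longer below an adjusted p of 0.05 in MOLM-13 cells, nor was H3-3B (0.069) in NB4 cells. The log2 ratio of H3-3A to H3-3B stayed at -0.32 under the block, with an exact adjusted p of 0.125. With eBayes without a trend the same 3 limma adjusted p were above 0.05 (0.052, 0.0648 and 0.0698).

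The number of variants past the cutoff in MOLM-13 cells became 1 under quantile normalization (H1-10) and 2 with an adjusted p as the criterion, and ranged from 0 to 1 with a library left out. In NB4 cells it became 1 without the filter (MACROH2A2), 3 under median-ratio scaling and 4 with an adjusted p, and was 0 with any library left out. The number differing between lines became 2 without the filter (H3-3A and MACROH2A2), 1 under median-ratio scaling and 1 with limma-voom, and ranged from 0 to 1 with a library left out. Without the filter 4967 genes in NB4 cells were called higher, and with a library left out between 540 and 1122 genes were higher and between 462 and 1213 lower in MOLM-13 cells.

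With a pseudocount of 0.01 the mean change of the log2 ratio of H3-3A to H3-3B was -0.32 (exact adjusted p = 0.06). That of MACROH2A1 to MACROH2A2 was -2.30 (0.085), in place of -1.38 (0.015) with a pseudocount of 0.1. The -1.38 averages -2.64 in NB4 cells, without overlap, and -0.11 in MOLM-13 cells, where the groups overlapped. MACROH2A2 had 0 reads with FP54 in MOLM-13 cells, so the ratio there depends on the pseudocount. With a library left out the H3-3A ratio ranged from -0.36 to -0.25 (0.05 without MOLM-13 DMSO replicate 2 or NB4 DMSO replicate 2), that of H2AZ1 to H2AZ2 from -0.30 to -0.23 and that of MACROH2A1 to MACROH2A2 from -1.41 to -1.34.

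Signs turned for values near 0. Quantile normalization put H2AZ2 in NB4 cells at 0.10 and the differences between lines at 0.15 (H2AZ1), 0.13 (H2AZ2) and 0.037 (H2AX). With a library left out, H2AZ2 ranged from -0.17 to 0.034 in MOLM-13 and from -0.11 to 0.0056 in NB4 cells, H2AJ in NB4 cells from -0.12 to 0.18, and the differences between lines from -0.15 to 0.18 (H2AZ1), -0.086 to 0.12 (H2AZ2) and -0.25 to 0.10 (H2AX). The cause of these changes was not tested.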
